A study of Mus musculus with 12 samples.

Results

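The genes of glucose breakdown, glucose synthesis and glycogen storage were followed in the livers of mice raised with or without a low dose of cadmium. The group holds 37 genes listed by name, each read through the probe set with the highest mean over the 12 arrays among those annotated to that gene alone. Of these, 34 were measured, out of 18194 genes named on the array, and 33 entered the tests. All 33 passed the filter on low signal. Gapdh, the dehydrogenase in the middle of glycolysis, was read only through the control probe sets of the array and was not tested, and Gpi1, Pfkfb1 and Eno1 were not analysed here. LDC mice, the low-dose cadmium group, were C57BL/6J offspring of dams that drank 100 nM CdCl2 from 1 week before mating, and they drank it themselves until the liver was taken at 30 weeks. Control mice of the same strain and age drank water alone. There were 3 arrays each of LDC males, LDC females, control males and control females, which the labels call biological replicates. Which mice shared a litter or a cage is not stated, and the tests take each mouse as an independent sample.

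The liver takes up glucose after a meal, phosphorylates it and either stores it as glycogen or breaks it down to pyruvate. During fasting it degrades glycogen and builds glucose from lactate, amino acids and glycerol, and both routes end at glucose 6-phosphate in the endoplasmic reticulum, where the phosphate is removed before glucose leaves the cell. Several steps are controlled through the amount of messenger RNA, under insulin, glucagon, glucocorticoids and growth hormone, while others are set mainly by phosphorylation and by metabolites that these arrays do not measure.

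Values are MAS 5.0 signals on a linear scale, 1 per probe set and array, which cannot be compared between genes because each probe set binds with its own strength. Differences are on the log2 scale. The mean of each array without its brightest and dimmest 2% was 500.0, and the median ran between 95.1 and 110.3. The sex of the labels matched the signals: Xist, the RNA of the inactive X chromosome, lay between 72.3 and 134 in the 6 males and between 16258 and 18731 in the 6 females, and the Y-linked Eif2s3y lay between 2234 and 2972 in males and between 1.02 and 9.73 in females. Hepatocyte markers gave summed signals between 277639 and 287082 in LDC males, between 257853 and 285824 in LDC females, between 273321 and 316394 in control males and between 254574 and 281186 in control females, and none of the 6 measured passed in any comparison. Of the 12 arrays, 4 (LDC male 1, LDC female 1, control male 2 and control female 2) correlated slightly more with the other exposure of their sex than with their own group, by most for control female 2 (mean r of 0.886, against 0.880). The 3′ to 5′ signal ratio of Gapdh, a sign of RNA quality, was 0.684 to 0.763 in LDC males and 0.766 to 0.836 in control males, which did not overlap. The part of either in the results below was not tested.

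The first question was whether LDC altered this pathway in either sex. None of the 33 tested genes passed in LDC males (0 calls, made in limma at an adjusted p under 0.05, where 0.278% of all probe sets tested passed) and none passed in LDC females (0, against 0.122%). None passed for the difference between the effects in the 2 sexes (0.178% of all probe sets) or for their mean (0.0444%). At an unadjusted p under 0.05 there were 8 genes in males, or 24.2%, against 10.2% of all probe sets, and 8 in females, against 9.01%. With the methods' t-test these counts were 6 in males, against 9.08% of all probe sets, and 0 in females, against 7.06%. The paper names that test for body composition and metabolic data, and names none for its array p-values. The differences were small for most genes. They ran between -1.28 and 0.93 in males, with a median of 0.09 against 0.00 over all probe sets, and between -0.87 and 0.45 in females, with a median of 0.03 against 0.01. The difference lay within 0.5 of no change for 28 genes in males and for 30 in females.

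**Figure D1:**
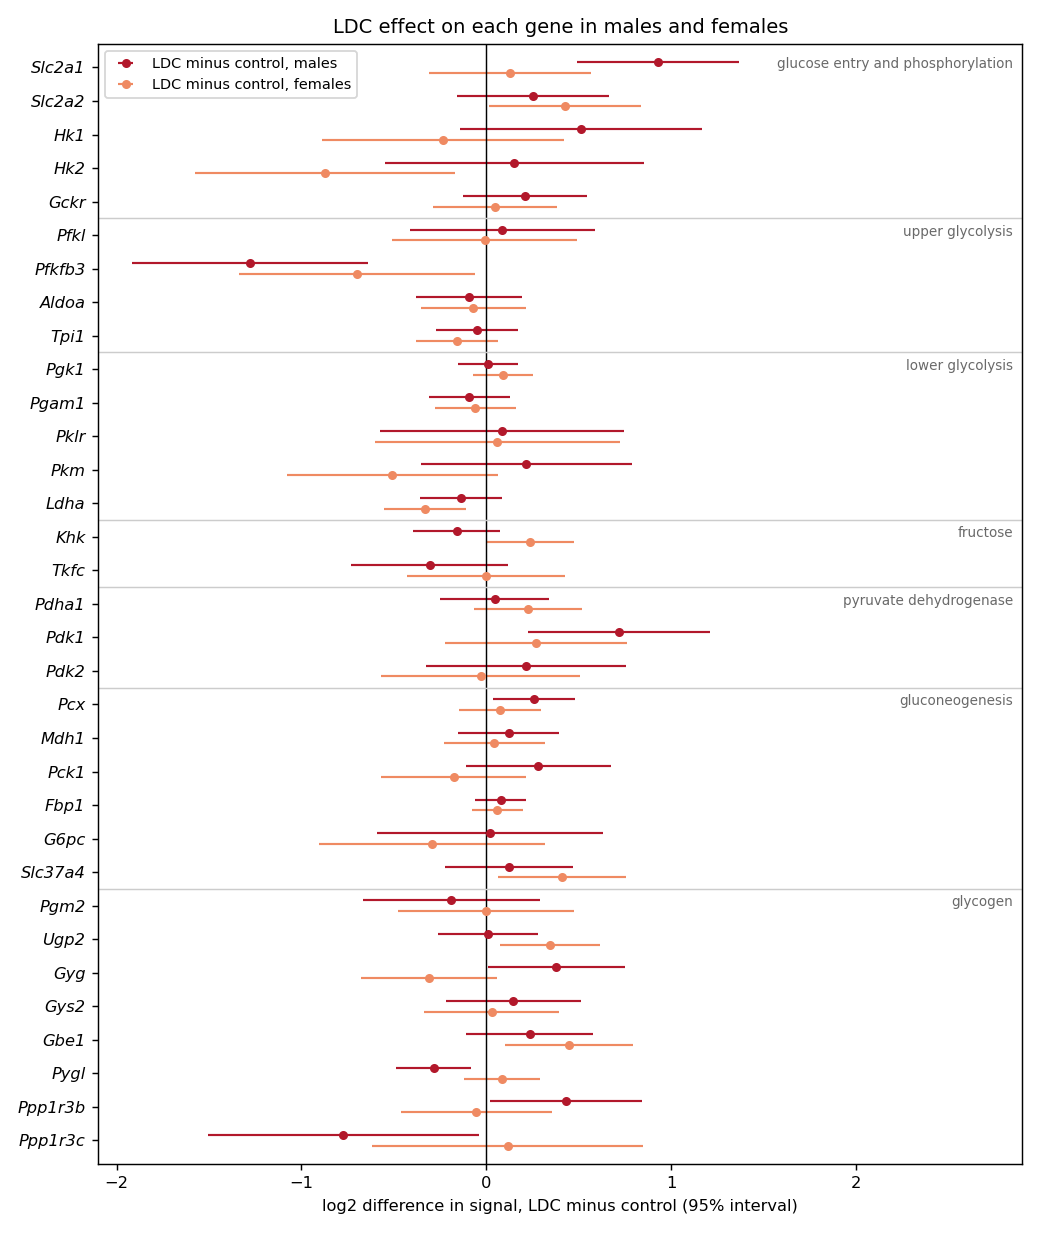
Log2 difference in signal between LDC and control mice (x axis) of the 33 tested genes (y axis, grouped by role), in males and in females. Points are differences and lines are 95% intervals from limma with 3 arrays per group; most points lie within 0.5 of 0, and Slc2a1 (0.93) and Pfkfb3 (-1.28) in males lie farthest out.

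Among the genes of glucose entry, Slc2a1, which encodes the widely expressed glucose transporter GLUT1, had the smallest p in males. Its signals were 616, 633 and 880 in LDC males, against 432, 336 and 343 in control males. Every LDC male lay above every control male. The difference was 0.93 (standard error 0.21, 95% interval 0.49 to 1.37), a ratio of 1.90, with an adjusted p of 0.0924. In females the signals were 479, 475 and 666 with LDC, against 506, 561 and 410 in controls, and the groups overlapped (difference 0.13, interval -0.31 to 0.57). The male effect exceeded the female effect by 0.80 (standard error 0.29, adjusted p = 0.371). The other probe sets of Slc2a1 stood at 1.19 and 0.99 in males, each with an adjusted p of 0.113. When 1 array was left out in turn, the adjusted p of the male difference ran between 0.0804 and 0.349. Among markers of white blood cells, those of macrophages and neutrophils stood higher with it. The summed signal of lymphocyte markers overlapped (338 to 368 in LDC males, against 254 to 365 in control males), with none of the 3 tested passing. The summed signal of 6 macrophage and Kupffer cell markers lay between 13943 and 19141 in LDC males, against between 9474 and 10250 in control males, with none of the 6 passing, and that of 6 neutrophil markers between 3063 and 3390, against between 1184 and 1521, with 1 of the 4 that were tested higher in LDC males. Their part in the Slc2a1 signal was not tested. Slc2a2, which encodes GLUT2, the main glucose transporter of hepatocytes, differed by 0.25 in males (interval -0.16 to 0.67) and by 0.43 in females (0.01 to 0.84, adjusted p = 0.535). Without control female 3, the female difference of Slc2a2 was 0.16 (adjusted p = 0.844). Gckr, which encodes the regulator that holds glucokinase in the nucleus, differed by 0.21 in males and 0.05 in females.

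Hk1 and Hk2 encode hexokinases that are more typical of other cells than of hepatocytes. In females Hk2 gave 261, 192 and 163 with LDC, against 574, 243 and 360 in controls. Control female 1 stood far above the rest, and the groups overlapped. The difference was -0.87 (standard error 0.33, adjusted p = 0.438), or -0.55 without control female 1, and it was 0.15 in males (interval -0.55 to 0.85). Among markers of white blood cells, those of neutrophils and macrophages moved along with it. The summed signal of lymphocyte markers overlapped (223 to 571 in LDC females, against 364 to 667 in control females). The summed signal of 6 neutrophil markers was 579 to 997 in LDC females and 3152 to 5795 in control females, and 3 of the 4 that were tested fell in LDC females. The sum of 6 macrophage and Kupffer cell markers was 5302 to 21346 in LDC females and 11525 to 30394 in control females, with none of the 6 passing and control female 1 highest. The part of these cells in the Hk2 signal was not tested, and in a whole liver fewer cells of a type and less RNA per cell cannot be told apart.

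In upper glycolysis, Pfkfb3 was the gene with the smallest p for the mean LDC effect over both sexes. It encodes an enzyme that makes and degrades fructose 2,6-bisphosphate, the activator of phosphofructokinase, and is a form best known outside the liver. Its signals were 389, 315 and 237 in LDC males, against 807, 505 and 1015 in control males, and 143, 134 and 221 in LDC females, against 339, 238 and 226 in control females. In each sex all LDC arrays lay below all control arrays. The difference was -1.28 in males (standard error 0.30, interval -1.91 to -0.64, adjusted p = 0.113), a ratio of 0.413, and -0.70 in females (adjusted p = 0.504). Their mean was -0.99 (adjusted p = 0.112), and the effects differed by -0.58 (adjusted p = 0.681). Leaving out 1 array in turn gave adjusted p-values between 0.0822 and 0.370 for males. The other measured genes of this segment were Pfkl (liver phosphofructokinase), Aldoa (aldolase A) and Tpi1 (triosephosphate isomerase). Their brightest probe sets lay between -0.09 and 0.09 in males and between -0.16 and -0.01 in females. Their other probe sets spread wider, from -0.23 (Tpi1) to 0.40 (Pfkl) in males and from -0.34 (Pfkl) to 0.01 (Aldoa) in females. None of them passed. In males the set of Tpi1 at -0.23 and those of Aldoa at -0.19 and -0.20 lay below the controls without overlap.

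In lower glycolysis the differences in males lay between -0.14 and 0.22 over 5 genes, read through their brightest probe sets. In females Ldha, which encodes the A subunit of lactate dehydrogenase, gave 15188, 14516 and 13612 with LDC, against 17528, 16196 and 21042 in controls. All LDC females were below all control females. The difference was -0.33 (standard error 0.10, interval -0.55 to -0.11), the smallest p among the genes in females, with an adjusted p of 0.323, and in males it was -0.14. Pklr, which encodes the liver form of pyruvate kinase, differed by 0.08 in males and 0.06 in females, with wide intervals that reached 0.74 and 0.72. Its other probe sets stood at 0.04 and 0.44 in males and at 0.30 and 0.41 in females, and none passed. Pgk1 and Pgam1 encode the kinase and mutase between Gapdh and enolase. Their brightest probe sets differed by no more than 0.09 in size in either sex. Other probe sets of Pgk1 stood at 0.11 and -0.04 in males and at 0.37 and 0.06 in females, and none passed. The 3′ control probe set of Gapdh averaged 20662 ± 445 in LDC males, against 22467 ± 1210 in control males, and 18702 ± 383 in LDC females, against 18173 ± 1364 in control females (SD, n = 3 each). The 5′ set, which enters the ratio given above, averaged 28569 ± 1328 in LDC males, against 28342 ± 278 in control males, and 24398 ± 1351 in LDC females, against 23439 ± 1788 in control females, so the lower mean of LDC males was seen with the 3′ set and not with the 5′ set.

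Pyruvate enters the mitochondrion and is either oxidised by pyruvate dehydrogenase or carboxylated for glucose synthesis. Pdk1 encodes a kinase that inhibits pyruvate dehydrogenase. Its signals were 4768, 4307 and 4584 in LDC males, against 3600, 2756 and 2129 in control males, and 5092, 4352 and 4845 in LDC females, against 5443, 4500 and 2504 in control females. The male groups did not overlap, and control female 3 stood low among the females. The difference was 0.72 in males (standard error 0.23, interval 0.23 to 1.21, adjusted p = 0.284) and 0.27 in females (adjusted p = 0.783), where it was -0.06 without control female 3. Its 3 other probe sets stood between 0.41 and 0.77 in males, with adjusted p-values of 0.385 and above. In females they stood at 0.38, -0.06 and 0.48 (adjusted p = 0.601, 0.985 and 0.395). In the last of them all LDC females lay above all control females, and control female 3 was not the lowest. Pdk2, another kinase of the complex, and Pdha1, its catalytic subunit, differed by 0.21 and 0.04 in males and by -0.03 and 0.23 in females.

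None of the gluconeogenic genes passed for LDC. Read through their brightest probe sets, over Pcx (pyruvate carboxylase), Mdh1 (cytosolic malate dehydrogenase), Pck1 (the phosphoenolpyruvate carboxykinase of the cytosol), Fbp1 (fructose 1,6-bisphosphatase), G6pc (the catalytic subunit of glucose 6-phosphatase) and Slc37a4 (the transporter that brings glucose 6-phosphate to it), the differences ran between 0.02 and 0.28 in males and between -0.30 and 0.41 in females. Fbp1 was the most tightly measured, at 0.08 in males (interval -0.06 to 0.22) and 0.06 in females (-0.08 to 0.20). A second probe set of Pck1 averaged 14180 ± 3008 in LDC males, against 8363 ± 1632 in control males, without overlap, and 2758 ± 1074 in LDC females, against 3082 ± 1747 in control females (SD, n = 3 each). Its differences were 0.76 in males (adjusted p = 0.465) and -0.08 in females. G6pc was spread widely. It averaged 12695 ± 771 in LDC males, against 13424 ± 6526 in control males, and 9622 ± 1587 in LDC females, against 12392 ± 5403 in control females (SD, n = 3 each). Its interval in males, -0.59 to 0.63, leaves room for a change of either sign. Khk (ketohexokinase) and Tkfc (triokinase), which bring fructose into the same pathway, differed by -0.16 and -0.31 in males and by 0.24 and 0.00 in females. The effect on Khk, male minus female, was -0.40 (adjusted p = 0.400).

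Genes of glycogen metabolism were among those with the smallest p-values in females and for the contrast between the sexes. Gbe1, which encodes the branching enzyme, gave 3306, 3793 and 3435 in LDC females, against 3355, 2489 and 2036 in control females. Ugp2, which encodes the enzyme that makes UDP-glucose for glycogen synthesis, gave 15659, 17569 and 19019 in LDC females, against 16183, 14710 and 10739 in control females. In both genes control female 3 was lowest and the groups overlapped. The differences were 0.45 for Gbe1 (standard error 0.16, adjusted p = 0.414) and 0.34 for Ugp2 (standard error 0.13, adjusted p = 0.425), and in males 0.23 and 0.01. Without control female 3 they were 0.28 (adjusted p = 0.675) and 0.17 (0.695) in females. The other probe sets of Ugp2 stood between 0.37 and 0.57 in females, again with control female 3 lowest. In those at 0.51 and 0.57 (adjusted p = 0.335 each) all LDC females lay above all control females. Gyg, the glycogenin that primes the glycogen chain, gave 454, 492 and 548 in LDC males, against 436, 366 and 350 in control males, and 400, 417 and 405 in LDC females, against 533, 423 and 570 in control females. LDC males lay above control males and LDC females below control females, without overlap in either sex, so that the effects differed by 0.69 (standard error 0.24, adjusted p = 0.361). The other probe set of Gyg overlapped in both sexes, with differences of 0.43 in males and 0.07 in females, and its effects differed by 0.36 (adjusted p = 0.770).

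Pygl, which encodes the liver glycogen phosphorylase that degrades glycogen, gave 12964, 14866 and 13212 in LDC males, against 17519, 15835 and 16614 in control males. The LDC males were all below the control males, and the difference was -0.29 (standard error 0.10, adjusted p = 0.316). In LDC females the signals were 15299, 14380 and 14414, against 15549, 14171 and 12064 in control females, a difference of 0.08, and the effects differed by -0.37 (adjusted p = 0.375). Gys2, the glycogen synthase of liver, differed by 0.15 in males (interval -0.22 to 0.51) and 0.03 in females (-0.34 to 0.39). Pgm2, a phosphoglucomutase, differed by -0.19 in males and 0.00 in females. Over the 33 genes the LDC and control arrays did not overlap for 8 genes in males, against 16.5% of all probe sets, and for 5 in females, against 13.9%.

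**Figure D2:**
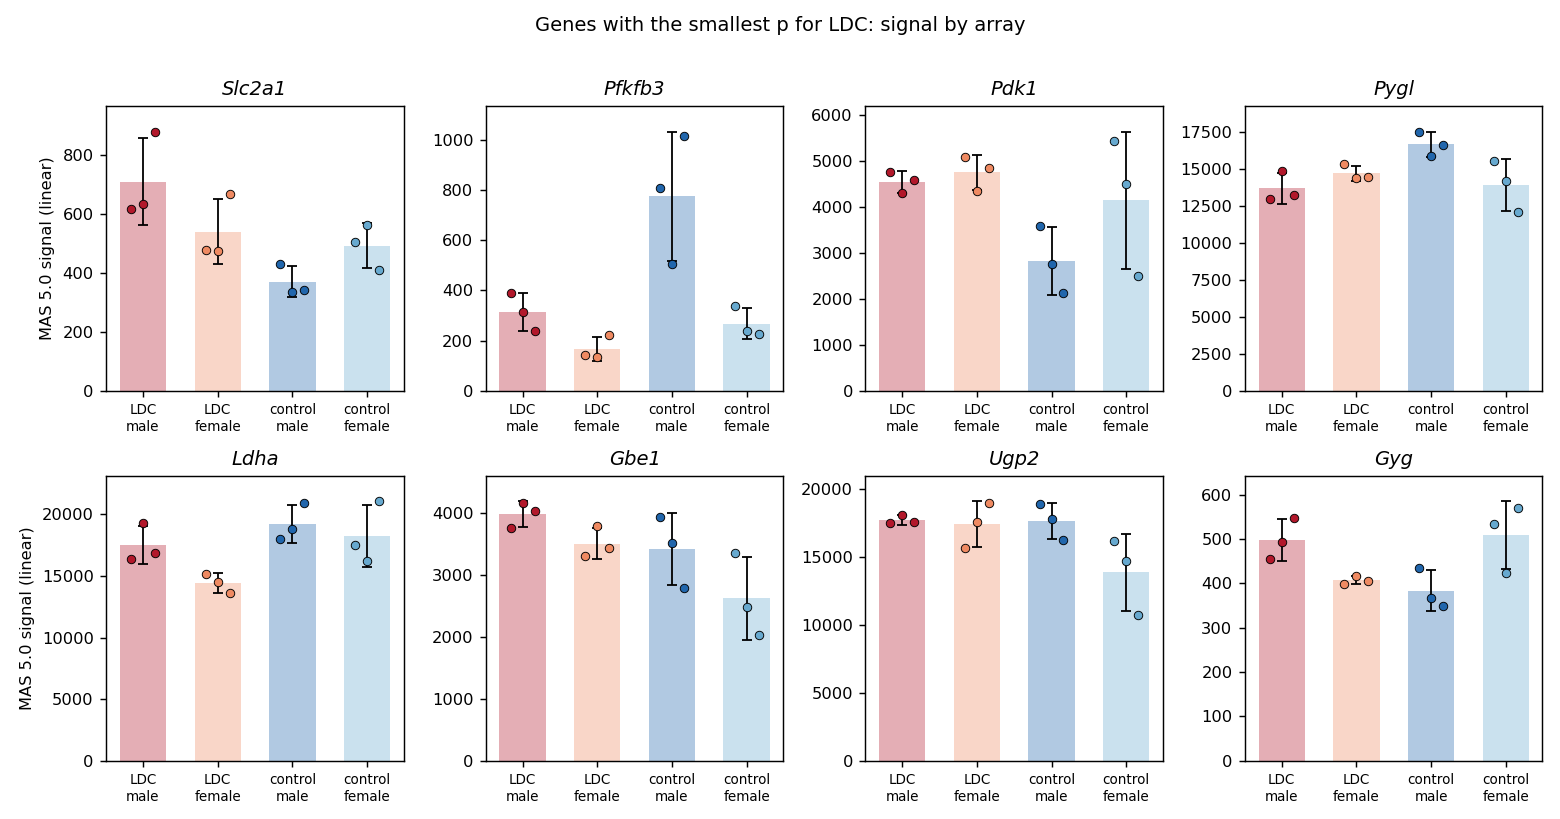
MAS 5.0 signal on a linear scale (y axis) in the 4 groups (x axis) of the 8 genes with the smallest p for LDC in males, in females or for the difference between the sexes. Points are arrays, bars are means and whiskers are SDs (n = 3); Pfkfb3 averages 314 in LDC males and 776 in control males, and Slc2a1 710 and 371.

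More of these genes passed between the sexes than between LDC and control mice. In control mice 9 of the 33 genes passed between the sexes, or 27.3%, against 7.73% of all probe sets tested and 12.3% of those at least as bright as the dimmest member. Higher in control males were Gys2, Slc37a4, Khk, Pgk1 and Pfkfb3 (5 genes, where 3.59% of all probe sets were called higher), and lower were Ppp1r3c, Ppp1r3b, Hk1 and Pkm (4 genes, where 4.14% were called lower). In LDC mice 6 genes passed, or 18.2%, against 6.29% of all probe sets and 10.3% of the bright ones. Gys2, Slc37a4, Pck1 and Pcx were higher in LDC males, and Ppp1r3c and Ppp1r3b lower. The control and the LDC comparison use different mice, though the fit estimates their variance together. Gys2, Slc37a4, Ppp1r3b and Ppp1r3c passed in both, in the same direction, which makes 12.1% of the 33 genes, against 2.89% of all probe sets. The sign of the sex difference was the same in LDC and control mice for 27 genes (81.8%, against 62.2% of all probe sets). Across the 33 genes, which share arrays and are not independent, the differences in LDC and control mice correlated at r = 0.80, and across all probe sets at r = 0.40. Unlike the shares called in each comparison, the 2.89%, the 62.2% and the r of 0.40 were not taken over the bright probe sets alone. The part of brightness in them was not tested.

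**Figure D3:**
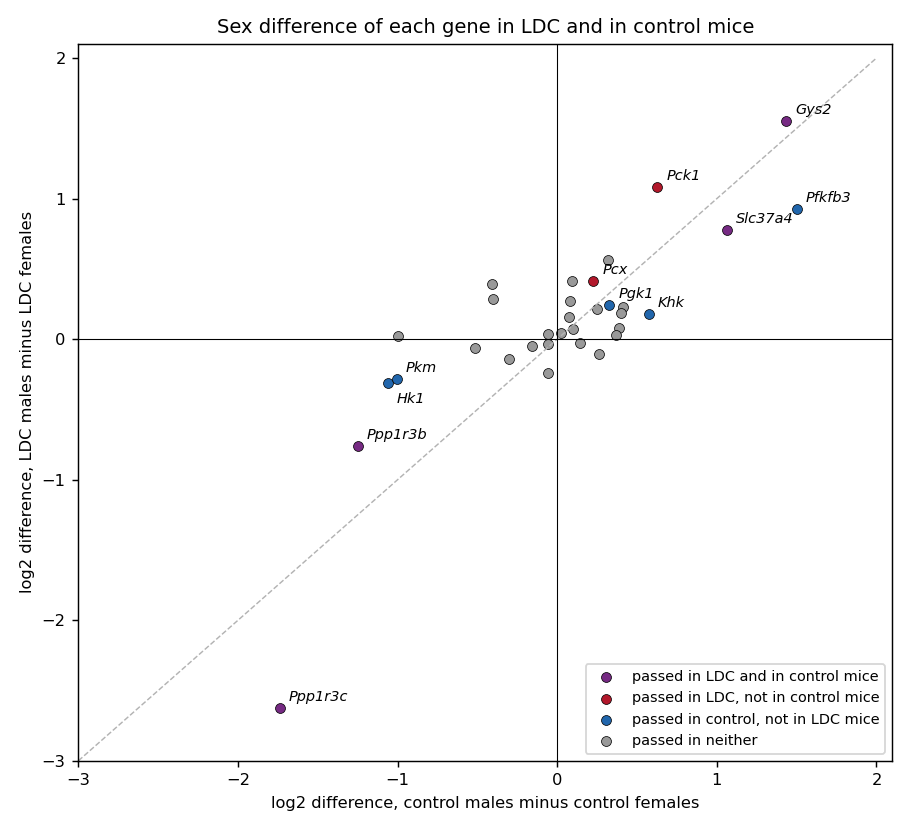
Log2 sex difference of the 33 tested genes in control mice (x axis, control males minus control females) and in LDC mice (y axis, LDC males minus LDC females). Colours mark the genes with an adjusted p under 0.05 in limma and the dashed line marks equal values; Gys2 and Slc37a4 lie high in both, and Ppp1r3b and Ppp1r3c low in both.

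Ppp1r3c and Gys2, both glycogen genes, had the widest sex differences in LDC mice, and in control mice Pfkfb3 of glycolysis stood between them. Gys2, the synthase that adds glucose to the glycogen chain, gave 6541, 9184 and 6965 in LDC males, against 2653, 2344 and 2661 in LDC females, and 8109, 6905 and 5512 in control males, against 2869, 2780 and 1956 in control females. The lowest male lay well above the highest female in both. The difference was 1.55 in LDC mice (standard error 0.17, adjusted p = 6.88e-05), a ratio of 2.93, and 1.44 in control mice (standard error 0.17, adjusted p = 0.000134), a ratio of 2.70. Both calls held in all 12 fits made with 1 array removed.

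Ppp1r3b and Ppp1r3c encode targeting subunits that bring protein phosphatase 1 to glycogen, where it activates glycogen synthase, and both ran the other way. Ppp1r3c gave 895, 915 and 1122 in LDC males, against 7038, 5946 and 5180 in LDC females, and 3305, 1649 and 844 in control males, against 7269, 4357 and 5380 in control females. All males were below all females, with control male 1 the closest to them. The difference was -2.63 in LDC mice (standard error 0.34, adjusted p = 0.000269), a ratio of 0.162, and -1.74 in control mice (standard error 0.34, adjusted p = 0.00634), a ratio of 0.300. A second probe set stood at -2.22 and -1.52, and it passed in LDC and in control mice as well. Both calls held in each fit that left out 1 array. Between LDC and control males Ppp1r3c differed by -0.77 (interval -1.51 to -0.04, adjusted p = 0.454), and the 3 control males were too far apart to place the LDC males outside their range. The difference was -0.28 without control male 1 and -1.26 without control male 3 (adjusted p = 0.774 and 0.0959).

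Ppp1r3b gave 6076, 7492 and 6735 in LDC males, against 11701, 12801 and 9999 in LDC females, and 6781, 5029 and 3669 in control males, against 15000, 11066 and 10105 in control females. The sexes did not overlap. The difference was -1.25 in control mice (standard error 0.19, adjusted p = 0.00102) and held in each fit that left out 1 array. In LDC mice it was -0.76 (adjusted p = 0.0273) and it no longer passed without LDC female 1 (adjusted p = 0.0835), LDC female 2 (0.113), LDC male 1 (0.103) or LDC male 3 (0.0814). LDC males exceeded control males by 0.43 (interval 0.02 to 0.84, adjusted p = 0.455), or by 0.21 without control male 3 and 0.65 without control male 1, and LDC females differed from control females by -0.05.

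The promoter of Ppp1r3c is shown because the gene had the widest sex difference of the group, and that of Pck1 because it had the widest in gluconeogenesis among LDC mice. Both are RefSeq sequences on GRCm38.p6 of the 250 bases before the annotated start, written 5′ to 3′ on the strand of the gene. Ppp1r3c lies on the minus strand of chromosome 19 (chr19:36736605-36736854), and the capitals mark the letters CACGTG, the E-box read by basic helix-loop-helix factors.
Ppp1r3c: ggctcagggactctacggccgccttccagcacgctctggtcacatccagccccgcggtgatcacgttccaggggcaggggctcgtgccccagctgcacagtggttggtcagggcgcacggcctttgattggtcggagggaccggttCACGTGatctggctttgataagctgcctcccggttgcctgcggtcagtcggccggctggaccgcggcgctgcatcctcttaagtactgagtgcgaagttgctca
Pck1 lies on the plus strand of chromosome 2 (chr2:173152823-173153072), and the capitals mark the letters TTACGTCA, a variant of the cyclic AMP response element.
Pck1: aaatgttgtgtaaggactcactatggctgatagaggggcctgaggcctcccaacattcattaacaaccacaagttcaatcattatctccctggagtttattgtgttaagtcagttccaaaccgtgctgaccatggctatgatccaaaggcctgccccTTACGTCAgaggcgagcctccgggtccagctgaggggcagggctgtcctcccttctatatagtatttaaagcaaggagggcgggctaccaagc
These letters are a description of the sequence and not a measured site. CACGTG stood in 6.02% of 32851 mouse windows of the same length, searched on both strands, and among the tested genes in Khk, Ldha, Pcx, Pdk2, Pfkfb3 and Ppp1r3c (6 of 44 windows of 31 genes). In Ppp1r3c the match runs 104 to 99 bases before the start. The STAT5 element (TTCNNNGAA, N being any base) and the forkhead element (TGTTTAC) were searched as well. They stood in 7.02% and 3.17% of all windows and in none of the 44 windows of the tested genes. TTACGTCA, 93 to 86 bases before the start of Pck1, stood in 0.447% of all windows and, among the tested genes, in that of Pck1 alone, and TGACGTCA, the full palindrome, in 1.55% of all windows and in that of Ldha.

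Slc37a4, the transporter of glucose 6-phosphate into the endoplasmic reticulum, gave 9798, 9569 and 9557 in LDC males, against 5332, 5701 and 5866 in LDC females, and 11009, 7915 and 7987 in control males, against 5006, 4875 and 3120 in control females. No male overlapped any female. The difference was 0.78 in LDC mice (standard error 0.16, adjusted p = 0.00926), a ratio of 1.71, and 1.06 in control mice (standard error 0.16, adjusted p = 0.000957), a ratio of 2.09. Both calls held in each fit that left out 1 array. LDC females stood above control females by 0.41, without overlap (interval 0.06 to 0.75, adjusted p = 0.469), and by 0.19 without control female 3, the lowest array (adjusted p = 0.758).

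Pck1, whose product commits oxaloacetate to glucose synthesis, gave 32861, 33774 and 36556 in LDC males, against 14394, 14573 and 20410 in LDC females. The LDC sexes were far apart, with a difference of 1.08 (standard error 0.18, adjusted p = 0.00214), a ratio of 2.12, and this held in each fit that left out 1 array. In control mice the signals were 31156, 24931 and 29182 in males, against 13597, 25409 and 17838 in females. Control female 2 reached the range of the males, and the difference was 0.63 (adjusted p = 0.0515). The sex difference in LDC mice exceeded that in control mice by 0.46 (adjusted p = 0.583), so a difference between the exposures was not shown. Of the other probe sets of Pck1, one gave 2.42 in LDC and 1.58 in control mice (adjusted p = 0.000518 and 0.0110), and a dim one gave the opposite sign, -1.57 and -1.60 (adjusted p = 0.0271 and 0.0224). What the dim probe set measures was not tested.

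Pcx, which makes the oxaloacetate that Pck1 uses, gave 7500, 7919 and 7892 in LDC males, against 5190, 6021 and 6389 in LDC females, and 6574, 6694 and 6243 in control males, against 4899, 6262 and 5598 in control females. LDC males lay above all other arrays. The sex difference was 0.41 in LDC mice (standard error 0.10, adjusted p = 0.0282) and 0.23 in control mice (adjusted p = 0.222). The first no longer passed without LDC female 1 (adjusted p = 0.130) or 2 (0.0684), or without LDC male 1 (0.0594), 2 (0.0956) or 3 (0.0952), and with arrays centred on their medians it was 0.33 (0.137). Read through their brightest probe sets, all 6 gluconeogenic genes had positive sex differences in LDC mice (0.04 to 1.08) and in control mice (0.02 to 1.06). Those of Mdh1, Fbp1 and G6pc passed in neither. The other tested probe sets of Mdh1 stood at -0.22, -0.03 and 0.02 in LDC mice and at 0.21, 0.15 and 0.32 in control mice. The dim probe set of Pck1 given above was negative in both. The sex differences of Fbp1, the smallest among the brightest probe sets, turned to -0.04 in LDC mice and -0.03 in control mice with arrays centred on their medians. That centring moved the median sex difference of all probe sets by -0.08 and -0.06.

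**Figure D4:**
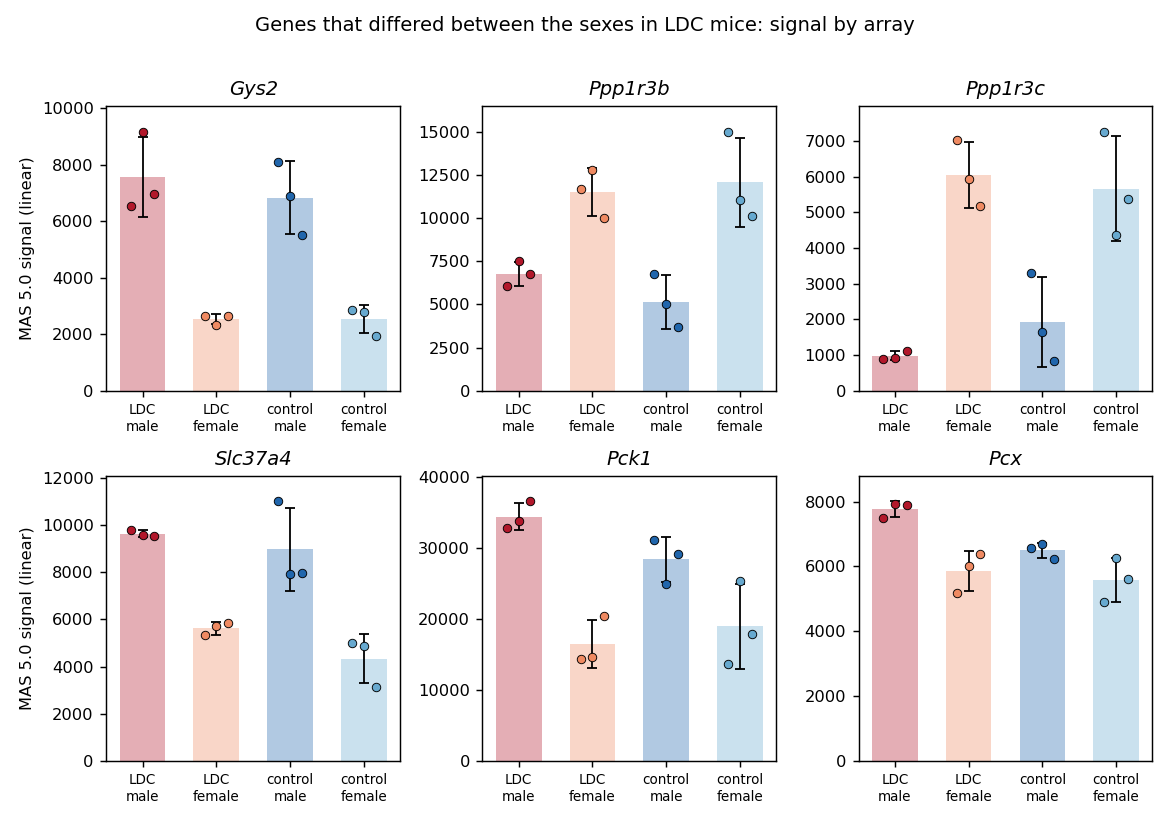
MAS 5.0 signal on a linear scale (y axis) in the 4 groups (x axis) of the 6 genes that passed between LDC males and LDC females. Points are arrays, bars are means and whiskers are SDs (n = 3); males stand above females for Gys2, Slc37a4, Pck1 and Pcx and below them for Ppp1r3b and Ppp1r3c.

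The remaining genes that passed between control males and control females belong to glycolysis and fructose use. Khk, the first enzyme of fructose breakdown, gave 13871, 10850 and 11844 in control males, against 9221, 8295 and 7072 in control females, a difference of 0.57 without overlap (standard error 0.11, adjusted p = 0.00538), and it held in each fit that left out 1 array. In LDC mice Khk gave 10889, 10990 and 10663 in males, against 10445, 9105 and 9318 in females, a difference of 0.18 (adjusted p = 0.432). Pfkfb3 was higher in control males than in control females by 1.50 (standard error 0.30, adjusted p = 0.00649), a ratio of 2.83, and in LDC mice the difference was 0.93 (adjusted p = 0.0861).

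Pgk1, the kinase that makes the first ATP of glycolysis, gave 14698, 13265 and 12920 in control males, against 10603, 11378 and 10599 in control females, and 13949, 13587 and 13565 in LDC males, against 11884, 11629 and 11209 in LDC females. The males were above the females throughout. The difference was 0.33 in control mice (standard error 0.08, adjusted p = 0.0171) and 0.24 in LDC mice (adjusted p = 0.0764). The call ended without control female 1 (adjusted p = 0.0509) and without control male 1 (0.0597), and with arrays centred on their medians it was 0.27 (0.136). The other probe sets of Pgk1 stood at 0.90 in control mice and 0.64 in LDC mice, where both passed (adjusted p = 0.00698 and 0.0487), and at 0.17 and 0.06, where neither did.

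Hk1 and Pkm, which encodes the pyruvate kinase of most tissues other than liver, were lower in control males. Pkm gave 172, 148 and 171 in control males, against 440, 230 and 348 in control females, a difference of -1.01 (standard error 0.27, adjusted p = 0.0323). Hk1 gave 122, 175 and 233 in control males, against 457, 315 and 314 in control females, a difference of -1.06 (standard error 0.31, adjusted p = 0.0472). Neither overlapped between the sexes of control mice, and control female 1 was the highest array for each. In LDC mice Pkm gave 158, 196 and 221 in males, against 256, 227 and 212 in females, and Hk1 gave 205, 268 and 261 in males, against 446, 285 and 218 in females, and both groups overlapped (differences -0.28 and -0.32, adjusted p = 0.636 and 0.647).

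Both calls were thin. That of Pkm ended without control female 1 (adjusted p = 0.146) or 3 (0.0886), and without control male 1 (0.0590), 2 (0.0994) or 3 (0.0671). That of Hk1 ended without control female 1 (0.175), 2 (0.0611) or 3 (0.0703), control male 1 (0.153) or 2 (0.103), LDC female 2 (0.0643), or LDC male 1 (0.0570), 2 (0.0615) or 3 (0.0631). Markers of white blood cells moved the same way: the summed neutrophil signal was 1184 to 1521 in control males and 3152 to 5795 in control females, with 3 of the 4 tested markers lower in males, and the macrophage and Kupffer cell sum was 9474 to 10250 in control males and 11525 to 30394 in control females. Markers of other cells went both ways. Those of red blood cells were higher in control males, with summed signals of 2652 to 3892, against 405 to 586 in control females. So were those of pancreatic acinar cells (2078 to 2506, against 822 to 1558) and adipocytes (205 to 384, against 68.5 to 203). Each of these lists had 1 tested marker that passed as higher. Endothelial sums overlapped (6416 to 7167, against 6512 to 8400). Stellate cell and bile duct markers were lower in control males. The sum of 6 stellate cell and fibroblast markers lay between 11321 and 14692 in control males, against between 16197 and 25939 in control females, with 1 of the 6 lower, and that of bile duct markers between 267 and 407, against between 441 and 745, with 1 of the 2 tested lower. In LDC mice the neutrophil sum ran the other way, between 3063 and 3390 in males, against between 579 and 997 in females, with 3 of the 4 tested markers higher in males, while the differences of Hk1 and Pkm stayed negative there. The part of these cells in these 2 genes was not tested.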

How the data were processed

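Liver RNA was measured on 12 Affymetrix mouse arrays. The authors deposited a signal intensity on a linear scale for every probe set, made with the MAS 5.0 algorithm (GeneSpring) and without detection calls. MAS 5.0 scales arrays to 1 trimmed mean, which removes any global difference in RNA.

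Of 45101 probe sets, 64 controls were left out. Genes came from the platform's annotation, with symbols updated through the gene ID (34754 probe sets); 34945 name 1 gene and 932 several. Intensities were log2 transformed without a pseudocount, and the 27022 probe sets at or above the 40th percentile of mean signal (log2 5.60, signal 48.6) were tested. A limma fit (3.58.1, R 4.3.3) took a mean for each of the 4 groups (8 residual and 6.35 prior degrees of freedom, intensity trend) with 6 contrasts: LDC against control within each sex, their difference and mean, and males against females in LDC and in control mice. P-values were adjusted over all 27022 probe sets by Benjamini-Hochberg. Figures used matplotlib 3.10.9.

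The members and gene lists were chosen with earlier results of these data known, and the motifs after values were seen. Array values are printed for members with an adjusted p under 0.05 in any contrast and for the 3 smallest unadjusted p in each of the male, female and difference contrasts, and Hk2 and G6pc were added after their values were seen. Of other lists, genes that passed and the 2 smallest p per sex are named. Other probe sets, 32 over 15 members, are given where they bear on a call. Alternatives were median centring, quantile normalization, log2(value + 32), no filter or one at the 20th or 60th percentile, eBayes without a trend, arrayWeights, each sex alone, a t-test, a replicate block, 1 or any probe set per gene, and leaving out each array. Those for Sik1, and the scalings and left-out arrays for members other than those printed by array, were added after seeing the data. Simulated arrays with known changes were used to test the fit.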

Additional observations from a re-analysis of the deposited data

Results flagged for a closer look

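The effect of LDC differed between the sexes for 3 markers of neutrophils, white blood cells that circulate through the liver, by the test of the difference itself. The male effect minus the female effect was 4.60 for S100a8, 4.05 for S100a9 and 2.99 for Ngp on the log2 scale (adjusted p = 1.47e-05, 0.00228 and 0.00949 from limma). The neutrophil sum lay between 3063 and 3390 in LDC males, against between 1184 and 1521 in control males, and between 579 and 997 in LDC females, against between 3152 and 5795 in control females. None of the 33 glucose and glycogen genes passed this test.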

How the results depend on the processing

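The LDC comparisons gave 0 called genes of the 33 under every alternative run. Some differences near 0 changed sign with the scaling: for LDC in males with median centring 3 of the 33 (Pgk1, Ugp2 and G6pc), the widest of them 0.02 in size, and for LDC in females with quantile normalization 3 (Pfkl, Tkfc and Pgm2), the widest 0.01. The sex comparisons depended on how the variance was estimated. The t-test called 0 genes in control mice (7 of all probe sets), or 9 at an unadjusted p under 0.05 (14.9% of all probe sets), and 2 in LDC mice (325 of all probe sets), or 11 unadjusted (18.0%), against 9 and 6 with limma, and eBayes without a trend called 3 in LDC mice. Leaving out 1 array in turn gave 6 to 11 genes in control and 4 to 6 in LDC mice, and 0 in each LDC comparison. Deviations from the group means correlated at r = -0.03 to 0.06 over the 6 pairs of same-numbered arrays, and at -0.08 to 0.08 for unequal numbers. So few pairs cannot settle whether the numbers pair the mice. A fit with the replicate number as a block gave 8 and 6 genes, lost the call of Hk1 (adjusted p = 0.0725) and that of Sik1 (0.0619), and gave 0 genes for LDC. Among further losses, Khk (0.0546) and Slc37a4 in LDC mice (0.0692) no longer passed without a trend. Hk1 and Pkm in control mice no longer passed without a filter (adjusted p = 0.0683 and 0.0598) or with one at the 20th percentile (0.0608 and 0.0513). With 3 arrays per group the intervals for LDC were wide, and signals near the filter have no detection call.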

Other observations

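Regulators of hepatic glucose genes, 28 of 29 listed genes measured and tested, held the one call for LDC among 5 further lists of related genes, where 0.278% of all probe sets passed in males. Sik1, a salt-inducible kinase that restrains gluconeogenic transcription, gave 367, 329 and 585 in LDC males, against 186, 116 and 165 in control males, and rose by 1.44 on the log2 scale (standard error 0.26, adjusted p = 0.0405 from limma). In females the difference was -0.21, and the effects differed by 1.65 (adjusted p = 0.119). The call ended without LDC male 1 (adjusted p = 0.110), 2 (0.0525) or 3 (0.198), control male 2 (0.119) or 3 (0.0822), LDC female 1 (0.0512), 2 (0.0710) or 3 (0.0648), or control female 3 (0.0512). Foxo1, the insulin-inhibited activator of G6pc and Pck1, was next in males at 0.46 (adjusted p = 0.150), and the smallest p-values in females were those of Cebpa (0.30, adjusted p = 0.290) and the phosphodiesterase gene Pde3b.

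Between the sexes, 4 regulators were higher and 2 lower in LDC males than in LDC females, and 5 were higher and 3 lower in control males than in control females, 6 and 8 of 28, where 6.29% and 7.73% of all probe sets passed. Foxo1 gave 1473, 1505 and 1641 in LDC males, against 717, 735 and 634 in LDC females, a difference of 1.15 (adjusted p = 3.76e-05 from limma). In control mice it was 0.41 (adjusted p = 0.0453). Cebpb, an activator of Pck1, was higher in males by 1.31 in LDC and 0.71 in control mice, and Txnip, which limits glucose uptake, by 0.82 and 0.81. Ppargc1a, a coactivator of gluconeogenic genes, was higher in LDC males by 1.16 (adjusted p = 0.00139). Srebf1, which drives lipid synthesis under insulin, was lower by 2.17 on the log2 scale in LDC males than in LDC females (adjusted p = 0.00166) and by 1.53 in control males than in control females (0.0169), and Irs1, an adaptor of the insulin receptor, was lower in males in both. Hnf4a and Cebpa were higher and Sik1 was lower in control males.

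Of the other glycogen genes (22 of 25 tested), Ppp1ca, the catalytic subunit of protein phosphatase 1, was lower in LDC males than in LDC females and in control males than in control females, each with a log2 difference of -0.43 (adjusted p = 0.00923 and 0.00969 from limma). Ppp1r3g, a further targeting subunit of that phosphatase, gave 1302, 895 and 1088 in LDC males, against 57.5, 101 and 278 in LDC females, a difference of 3.20 (adjusted p = 0.00948). It ran opposite to Ppp1r3b and Ppp1r3c. Gsk3b and Pgm3 were higher in control males. Of the 22 tested, 1 was higher and 1 lower in LDC males, and 2 were higher and 1 lower in control males. Of all probe sets 6.29% passed between the sexes in LDC mice and 7.73% in control mice. Whether this list or those below exceed these shares was not tested. For LDC none passed, with Phka1 (-0.81) and Ppp1r3g (1.63) first in males and Pygb (-0.84) and Gsk3b (0.26) first in females.

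Among other genes of glycolysis and gluconeogenesis (22 of 26 tested) none passed for LDC. Slc2a3, which encodes the glucose transporter GLUT3 of neurons and white blood cells, gave 28.9, 52.2 and 14.5 in LDC females, against 278, 134 and 153 in control females, a difference of -2.68 (adjusted p = 0.121 from limma) that rests partly on signals under the filter of 48.6. The neutrophil marker sum moved along with it, and its part was not tested. Slc2a8 differed by 0.60 in females, and Bpgm by -0.65 and Galm by 0.28 in males. Ldhd, a D-lactate dehydrogenase, was higher in males in LDC mice (0.68) and control mice (0.55), and Slc2a9, a urate transporter, was lower in control males (-0.82). These were the only sex calls among the 22 tested, where 6.29% of all probe sets passed in LDC mice and 7.73% in control mice. Of the genes of pyruvate and the mitochondrial shuttles (22 of 23 tested), the aminotransferase genes Got1 (1.08) and Gpt2 (0.61) were higher in LDC males than in LDC females, and Got1, Gpt2, Pdhb, Pdhx and Pdp2 in control males. For LDC the smallest p-values were those of Pdhx (-0.44) and Pdk4 (1.03) in males and Gpd2 (0.39) and Slc25a13 (0.27) in females, and none passed. Of the fructose, galactose and pentose phosphate genes (10 of 15 tested), H6pd, the hexose 6-phosphate dehydrogenase of the endoplasmic reticulum, was higher in males in LDC (0.89) and control mice (0.57), Galt was lower in LDC males (-0.82), and Slc2a5 (1.29) and Glyctk were higher in control males. None passed for LDC, with Galt (-0.45) and Rpe (-0.26) first in males and H6pd (-0.33) and Tkt (0.25) first in females.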
